A study of Mus musculus with 12 samples.

Results

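The genes described here are 46 named mouse genes of the interferon response and of antigen presentation by MHC class I, out of 17847 genes listed in either of the deposited expression tables. They were chosen as a list of names, by no cutoff on a measured value, but with earlier results of these data known. The list holds 2 receptor chains, 7 transcription factors and coactivators, 10 nucleic acid sensors and RNA-binding enzymes, 18 other induced effectors and 9 genes of antigen presentation. In the tables, 43 of the 46 have rows, and Mx1, Mx2 and Psmb8 have none. A low-count filter left 30 of the 46 for testing.

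The RNA came from mTECs, a mouse renal tubular epithelial cell line, in a study of fumarate hydratase (FH, gene Fh1) and renal fibrosis. FH is a tricarboxylic acid cycle enzyme that hydrates fumarate to malate. The 4 groups of 3 libraries each were control cells (NC) and cells with silenced FH (KD), both under basal conditions, and the same kinds of cells after stimulation with TGF-β1 (NC+TGF-β1 and KD+TGF-β1). All are cells of this line, and the labels used here give neither the silencing reagent nor the dose or duration of TGF-β1. The comparisons ask how silencing goes with these genes in each setting, how TGF-β1 goes with them in each kind of cell, and whether the change with silencing depends on TGF-β1.

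Type I interferons bind a receptor made of IFNAR1 and IFNAR2, which activates STAT proteins. STAT2 with IRF9 forms part of a complex that binds the interferon-stimulated response element (ISRE) in the promoters of induced genes. Their products sense or bind foreign RNA, block viral replication, and cut, transport and present peptides on MHC class I. Renal tubular cells can both respond to interferon and present antigen.

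Library depth was 17651213 to 18462872 estimated counts. Fh1 counts were 917 to 992 for NC against 526 to 578 for KD libraries, and 860 to 879 for NC+TGF-β1 against 240 to 265 for KD+TGF-β1 libraries, lower in every silenced library. TGF-β1 and basal libraries separated on principal component 1, with 78.1% of the variance, and NC replicate 1 stood apart on component 2, with 3.87%. Basal and TGF-β1 libraries come in separate tables, so in any comparison across them an effect of TGF-β1 and one of the separate table or run cannot be told apart. Of the epithelial markers, Krt18 had at least 19080 and Pax8 at least 1913 counts in each library, while the segment markers Lrp2, Slc34a1, Umod and Aqp2 had at most 13. Of 10 leukocyte markers, 7 had at most 10 counts in each library, with Tyrobp at 0 in all 12 and Ptprc at 9 or fewer; their summed 1479 to 1762 counts were mostly Csf1r. The macrophage marker Cd68 had 58 to 66 counts in basal and 14 to 27 in TGF-β1 libraries. The summed counts of 5 fibroblast markers, mostly Col1a1, were 9 to 21 in basal and 99 to 134 in TGF-β1 libraries. Those of 4 endothelial markers, mostly Cdh5, were 10 to 21 and 49 to 71. The part of these markers in the TGF-β1 results was not tested. KD+TGF-β1 replicate 1 held 328 counts of 9 pluripotency markers that were at 0 in the other 11 libraries. Without it, silencing with TGF-β1 called 2 members in place of 3 and 857 genes in place of 1340. Leaving out any other single library of this comparison gave 0 to 3 members and 782 to 972 genes. Each such fit also has fewer samples, so it cannot show whether the pluripotency reads affect the calls, which was not tested. The labels do not say whether replicates are separate cultures, so p-values reflect only how far these samples spread, which may be technical.

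The level of the pathway in basal control cells was uneven: both receptor chains, 5 of 7 transcription factors and the presentation genes B2m, H2-D1, H2-K1, Tapbp and Psmb10 were well detected, while Tap1, Tap2, Psmb9 and many classical interferon-induced genes were near or below 1 TPM. Levels are given in TPM, a unit corrected for transcript length and library size, so that genes can be compared (mean ± SD of 3 NC libraries). Of the receptor chains, Ifnar2 stood at 33.5 ± 0.977 TPM and Ifnar1 at 14.8 ± 0.594 TPM. Among the transcription factors, Irf3, which acts below the RNA and DNA sensors, stood at 39.4 ± 1.33 TPM. Irf2, Irf1, Stat2 and Irf9 followed at 4.96 to 12.7 TPM. Irf7, which amplifies interferon induction, stood at 0.28 ± 0.0954 TPM, and Nlrc5, the coactivator of MHC class I genes, had at most 2 counts in a library.

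Of the sensors and enzymes, the RNA editor Adar (22.6 ± 0.998 TPM) and the double-stranded RNA-activated kinase Eif2ak2 (16.3 ± 1.29 TPM) were well detected. The RNA sensor Ifih1 stood at 0.287 ± 0.0153 TPM and Dhx58, a regulator of such sensors, at 0.83 ± 0.301 TPM. The oligoadenylate synthetase genes Oas1a, Oas2 and Oas3 and the related Oasl1 had at most 4 counts in any of the 12 libraries. Of the sensors and enzymes with rows, Adar and Eif2ak2 had the highest TPM.

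The effectors split in the same way. Ifit3 (56.0 ± 1.13 TPM), Ifit2 (45.9 ± 5.71 TPM), Bst2 (43.1 ± 0.782 TPM), Ifi35 (18.1 ± 1.41 TPM) and Ifit3b (17.8 ± 1.5 TPM) were well detected. Ifit1, of the same chromosome 19 cluster as the other Ifit genes, stood at 0.107 ± 0.00577 TPM. Isg15, the ubiquitin-like modifier, had 1 to 7 counts in NC and KD and 1 to 2 in the TGF-β1 libraries. Rsad2, Cmpk2, Rtp4 and Xaf1 reached at most 13 counts in a library. For presentation, the light chain B2m stood at 331 ± 19.2 TPM and the heavy chains H2-D1 and H2-K1 at 121 ± 1.6 and 18.9 ± 0.777 TPM. The peptide-loading bridge Tapbp stood at 46.03 ± 1.24 TPM, whereas the peptide transporter subunits Tap1 and Tap2 stood at 0.65 ± 0.0436 and 0.41 ± 0.167 TPM. The immunoproteasome subunit Psmb10 stood at 8.68 ± 0.216 TPM, and Psmb9 had at most 1 count in a library. In all, 16 of the 46 members had at least 100 counts in each of the 12 libraries and 15 had at most 10 in each. In bulk RNA, fewer cells of a type and less RNA per cell cannot be told apart.

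**Figure D1:**
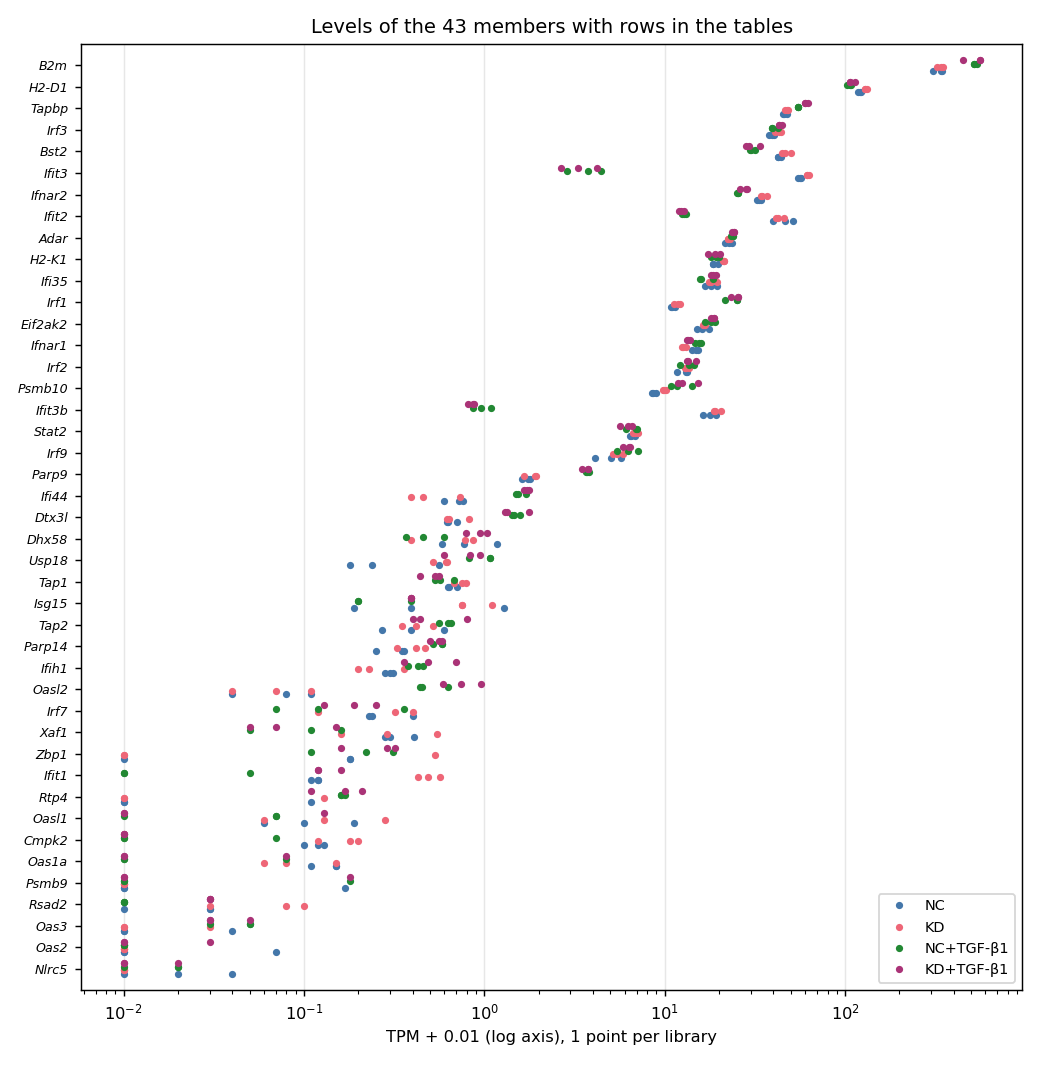
TPM + 0.01 on a log axis for the 43 members with rows, 1 point per library, coloured by group and ordered by the mean over all 12 libraries. B2m and H2-D1 stand highest; the Ifit3 and Ifit3b points of the TGF-β1 groups lie far to the left of their basal points, and many induced genes sit below 1 TPM in every group.

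Promoter stretches are shown for Ifit3 and Ifit3b, which fell most with TGF-β1, for Ifit1 and Isg15, which hold the same kind of element at low counts, and for Ifnar1 and Tapbp, called with silencing as Ifit1 was. The windows come from RefSeq (GRCm38.p6), with 250 bases before and 50 after each annotated start, and 35 of the 46 members have 1. The ISRE core was searched on both strands as GAAANNGAAA, where N is any base. Capitals mark each match. The stretches lie at chr19:34583363-34583426 (plus strand) for Ifit3, chr19:34607759-34607822 (plus) for Ifit3b, chr19:34640775-34640834 (plus) for Ifit1, chr4:156200847-156200906 (minus) for Isg15, chr16:91485145-91485225 (plus) for Ifnar1 and chr17:33919408-33919488 (plus) for Tapbp.
Ifit3: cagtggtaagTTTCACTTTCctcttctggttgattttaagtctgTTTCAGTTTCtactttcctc
Ifit3b: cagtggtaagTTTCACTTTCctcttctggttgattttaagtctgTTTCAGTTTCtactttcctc
Ifit1: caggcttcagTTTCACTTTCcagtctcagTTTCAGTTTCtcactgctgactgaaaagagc
Isg15: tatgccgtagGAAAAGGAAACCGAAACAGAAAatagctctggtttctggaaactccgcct
Ifnar1: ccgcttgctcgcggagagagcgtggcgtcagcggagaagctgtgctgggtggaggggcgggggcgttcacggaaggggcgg
Tapbp: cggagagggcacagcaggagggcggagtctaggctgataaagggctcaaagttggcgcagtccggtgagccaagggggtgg

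The stretches of Ifit3 and Ifit3b are identical over 64 bases, and each holds 2 ISRE cores, as does the stretch of Ifit1. Isg15 holds 3 cores that overlap, and the windows of Ifnar1, Tapbp and Ifit2 hold none. An ISRE core was found in 13 of the 35 members with a window (37.1%) and in 3.99% of 27025 genes with windows of the same length. They are Ifih1, B2m, Isg15, Oas3, Oas1a, Irf2, Bst2, Stat2, Rsad2, Eif2ak2, Ifit3, Ifit3b and Ifit1. The GAS element bound by STAT dimers, searched as TTCNNNGAA, was found in 11 members (31.4%, against 9.55% of all genes). Ifnar1 holds 1 such match, 5 bases before its start. The NF-κB element, searched as GGGNNTTNCC, was found in 5 members (14.3%, against 5.48%). Both H2-K1 and H2-D1 hold it. These motifs can overlap in a window, and a match describes letters only. The coding sequences of Ifit3 and Ifit3b are 99.1% identical (1198 of 1209 positions), so reads of these 2 genes are hard to tell apart, and their counts are also given summed.

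Under basal conditions, silencing of Fh1 went with a small fall in the receptor chain Ifnar1 and with more Ifit1, an RNA-binding antiviral protein, at very low counts. Of the 30 tested members, 2 were called at an adjusted p under 0.05 (6.67%), against 3.66% of the 11709 genes tested. Of the 30, 1 was higher and 1 lower, against 1.44% of all genes called higher and 2.22% called lower. The 1 called higher is Ifit1, which was tested only because its KD basal libraries passed the low-count filter. The share called is therefore not independent of its rise. The median log2 change was 0.06 over the 30 members and -0.01 over all genes. Tests are edgeR's quasi-likelihood test with Benjamini-Hochberg adjustment over all genes, and CPM are counts scaled to library size with TMM factors.

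Ifnar1 (Entrez 15975) stood at 63.4, 66.4 and 69.5 CPM in NC and at 56.8, 55.6 and 58.6 CPM in KD libraries. The groups did not overlap, with every KD library below every NC library. The log2 change was -0.22 (SE 0.0465, adjusted p = 0.0164), or 1.17-fold lower. The partner chain Ifnar2 had a log2 change of 0.02 (SE 0.0555, adjusted p = 0.916). Counts of Ifit1 (Entrez 15957) were 3, 3 and 3 for NC against 16, 12 and 14 for KD libraries. Every KD library was above every NC library. The summed 9 and 42 counts give a ratio of 4.63 (exact 95% interval 2.22 to 10.8, counting error only), and the edgeR test gave an adjusted p of 0.00511. Ifit1 passed the low-count filter through its KD basal libraries alone, so its place among the tested genes is not independent of this difference. Ifit3 and Ifit3b, which hold the same kind of ISRE cores, had a summed log2 change of 0.13 (SE 0.0582, adjusted p = 0.275).

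By role, 1 of 2 receptor chains fell, and 0 of 5 transcription factors, 0 of 5 sensors and enzymes, 1 of 11 effectors and 0 of 7 presentation genes passed. Over all genes 3.66% were called, so 0 or 1 in groups of this size says little about a role. The presentation genes ranged from a log2 change of 0.01 (B2m) to 0.18 (Psmb10), and H2-D1 had the smallest p of them (log2 change 0.10, SE 0.0364, adjusted p = 0.186). The transcription factors ranged from 0.04 to 0.12 and the sensors and enzymes from -0.30 to 0.01. The Ifnar1 call was lost in 6 of 14 alternatives, with an adjusted p up to 0.0834; leaving out NC replicate 2 gave 0.052, NC replicate 3 gave 0.0695, KD replicate 1 gave 0.0688 and KD replicate 2 gave 0.0814. The log2 change of Ifnar1 stayed between -0.25 and -0.17 over these alternatives.

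With TGF-β1, Ifnar1 was again lower in silenced cells and Ifit1 higher, the latter on very few counts. Tapbp, which bridges MHC class I to the peptide transporter, was slightly higher. Here 3 of 30 members were called (10%), against 11.4% of all genes. Of these, 2 were higher and 1 lower, against 5.42% and 6.02% of all genes. The median log2 change was 0.02 over the 30 members and 0.00 over all genes.

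Ifnar1 stood at 68.2, 72.4 and 64.9 CPM in NC+TGF-β1 and at 60.7, 59 and 60.3 CPM in KD+TGF-β1 libraries. The groups did not overlap, and the log2 change was -0.19 (SE 0.0465, adjusted p = 0.0171), or 1.14-fold lower. Tapbp (Entrez 21356) stood at 88.1, 90.1 and 89.1 CPM in NC+TGF-β1 and at 96.1, 101 and 98 CPM in KD+TGF-β1 libraries. Every silenced library was above every control library, at a log2 change of 0.14 (SE 0.0322, adjusted p = 0.0121), or 1.1-fold higher. DESeq2 gave the same change an adjusted p of 0.0517. In basal libraries the Tapbp change was 0.03 (SE 0.0329, adjusted p = 0.693). Ifit1 had 1, 0 and 0 counts in NC+TGF-β1 and 4, 3 and 3 counts in KD+TGF-β1 libraries. The silenced libraries were again higher, on counts so low that the summed 1 and 10 counts give a ratio of 9.95 with an exact 95% interval of 1.42 to 432 (edgeR adjusted p = 0.0355). Ifit1 reached the low-count cutoff in 0 libraries of either group here, and was tested only through its KD basal libraries. With only the groups compared it was not tested.

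Dhx58 had a log2 change of 0.95 (SE 0.34, adjusted p = 0.092) and did not pass, although it did with only the groups compared (edgeR adjusted p = 0.0287). Without KD+TGF-β1 replicate 2, 0 members were called, where Ifnar1 was at an adjusted p of 0.0646, Tapbp at 0.0556 and Ifit1 at 0.06. Without NC+TGF-β1 replicate 2, Ifnar1 (0.0708) and Ifit1 (0.137) lost their calls, and without KD+TGF-β1 replicate 3, Ifnar1 (0.0533) and Ifit1 (0.0628). Ifit1 also lost its call without NC+TGF-β1 replicate 3 (0.137) or KD+TGF-β1 replicate 1 (0.102), the library with the pluripotency reads. With no low-count filter its adjusted p was 0.0657, and with limma on TPM it was 0.118.

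**Figure D2:**
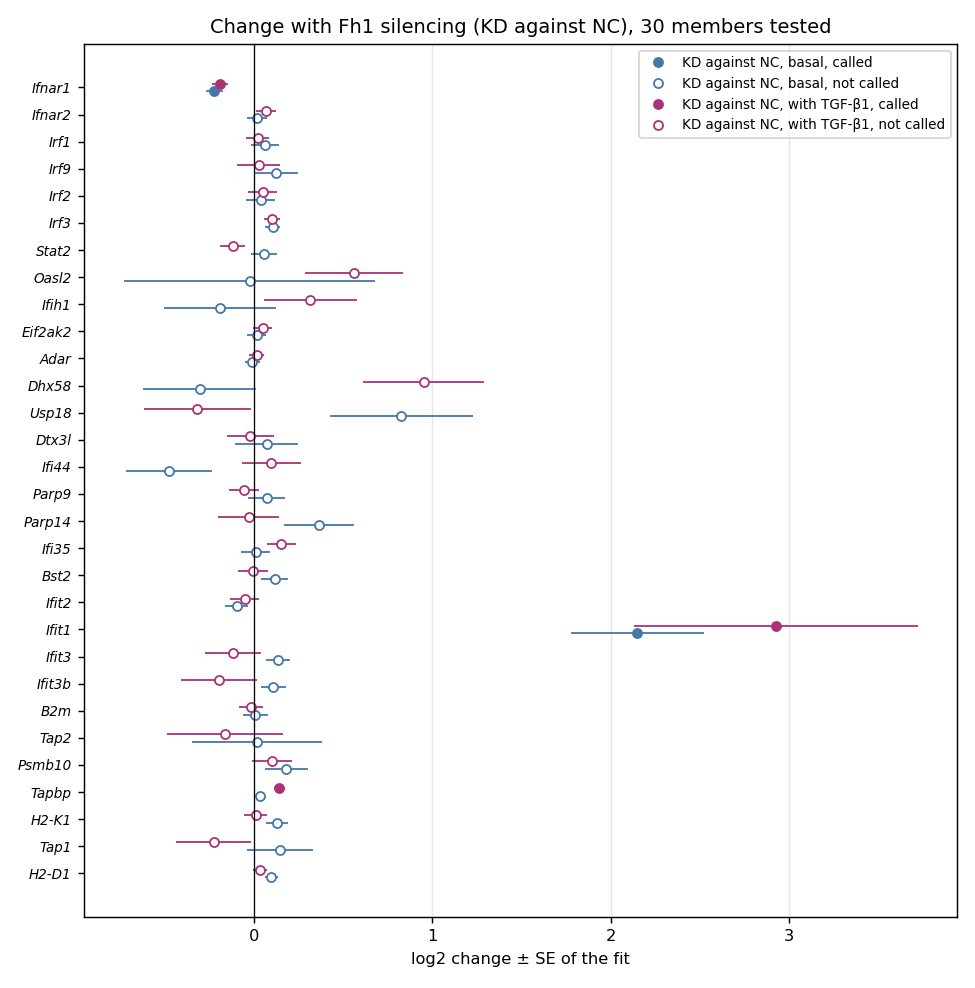
Log2 change with silencing (KD against NC) on the horizontal axis for the 30 tested members, ordered by role, in basal and in TGF-β1 libraries; points are fitted changes, lines are ± SE, and filled points are called. Most points lie within 0.2 of 0; Ifit1 stands far to the right on few counts, and Ifnar1 lies to the left at -0.22 and -0.19.

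The change with silencing did not differ detectably between basal and TGF-β1 libraries for any tested member. In the interaction term of the edgeR fit, 0 of 30 members were called, against 0.888% of all genes (0.47% higher, 0.418% lower). Limma also called 0 members, and DESeq2 called 0 but gave no adjusted p for 10 of the 30, Dhx58 and Usp18 among them. At an unadjusted p under 0.05 in edgeR there were 3 of 30 members and 1326 of 11709 genes. The 3 members were Dhx58 (difference 1.26 on the log2 scale, SE 0.464, adjusted p = 0.297), Tapbp (0.11, SE 0.046, adjusted p = 0.371) and Usp18 (-1.14, SE 0.503, adjusted p = 0.41). For Ifnar1 the difference between the settings was 0.03 (adjusted p = 0.904). Fh1 itself changed more with silencing in the TGF-β1 libraries (log2 change -1.81) than in the basal ones (-0.83; adjusted p of the difference = 8.17e-06).

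The TGF-β1 libraries differed from the basal ones over much of the list, in both directions. In NC cells 17 of 30 members were called (56.7%), against 64.2% of all genes. Of the 30, 10 were higher and 7 lower, against 29.4% and 34.7% of all genes. In KD cells 17 of 30 were called (56.7%), against 65.1% of all genes, with 10 higher and 7 lower, against 31.4% and 33.7%. The shares called are close to those of all genes. They include Oasl2, which passed the low-count filter through its TGF-β1 libraries alone, and Ifit1, which passed through its KD basal libraries alone. In NC cells they also include Usp18, which reached the filter's cutoff in 0 NC and 3 NC+TGF-β1 libraries. The median log2 change of the 30 members was 0.06 in NC and 0.12 in KD cells, and that of all genes -0.03 and -0.01. In both kinds of cells 15 members were called in the same direction, 8 higher and 7 lower. How many of all genes were called in both was not counted, so 15 has no background to be set against. The silencing and TGF-β1 comparisons share libraries, so their values are set side by side here and are not evidence for each other.

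Of the receptor chains, Ifnar2 fell with TGF-β1. It stood at 24.5, 25.7 and 25.2 CPM in NC and at 21.6, 22.2 and 20.2 CPM in NC+TGF-β1 libraries. In silenced cells it stood at 26.5, 24.8 and 25.1 CPM without and at 23.2, 22.8 and 21 CPM with TGF-β1. The groups did not overlap in either kind of cell, and the log2 changes were -0.24 (SE 0.057, adjusted p = 0.00219) and -0.19 (SE 0.0566, adjusted p = 0.00956). The call in KD cells was lost with DESeq2 (0.0989) and without KD+TGF-β1 replicate 3 (0.0508). Ifnar1 did not pass in either (0.04 and 0.07, adjusted p = 0.427 and 0.179).

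Of 5 tested transcription factors, 1 was called in NC and in KD cells (20% in each, against 64.2% and 65.1% of all genes). It is Irf1, which drives MHC class I and other interferon-γ target genes. It stood at 13.2, 13.7 and 13.6 CPM in NC and at 26.3, 31 and 30.6 CPM in NC+TGF-β1 libraries. In silenced cells it stood at 14.5, 14.1 and 13.7 CPM without and at 27.7, 30.4 and 31 CPM with TGF-β1. Every TGF-β1 library was above every basal library. The rises were 2.17-fold in NC (log2 change 1.12, SE 0.0717, adjusted p = 7.06e-09) and 2.11-fold in KD cells (log2 change 1.08, SE 0.0709, adjusted p = 9.18e-09). Stat2, Irf2, Irf3 and Irf9 did not pass in NC or KD cells (log2 changes -0.16 to 0.29). Irf9 in NC cells, at an adjusted p of 0.0584, passed in 5 of 14 alternatives, with an adjusted p of 0.00462 without NC replicate 3 and of 0.0245 to 0.0395 in the others. Stat2 in KD cells, at 0.0599, passed without KD+TGF-β1 replicate 3 (0.0268).

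Of 5 tested sensors and enzymes, Oasl2, an oligoadenylate synthetase-like protein that is ubiquitin-like in part, rose in both kinds of cells, and Ifih1 and Eif2ak2 were called in KD cells. That is 1 of 5 in NC (20%, against 64.2% of all genes) and 3 of 5 in KD cells (60%, against 65.1%). Oasl2 had 2, 3 and 1 counts in NC, 2, 3 and 1 in KD, 12, 18 and 12 in NC+TGF-β1 and 16, 26 and 20 in KD+TGF-β1 libraries. Every TGF-β1 library was above every basal library. The ratio of summed counts was 7.1 (exact 95% interval 3 to 20.4) in NC and 10.5 (4.56 to 29.7) in KD cells, with an edgeR adjusted p of 0.000103 and 6.88e-06. Oasl2 passed the low-count filter through its TGF-β1 libraries alone, so its place among the tested genes is not independent of this rise.

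Ifih1 had 19, 17 and 19 counts in NC, 14, 12 and 23 in KD, 27, 26 and 21 in NC+TGF-β1 and 21, 42 and 29 in KD+TGF-β1 libraries. In silenced cells the groups overlapped, and the log2 change of 0.99 (SE 0.283, adjusted p = 0.00716) was 0.70 (adjusted p = 0.0501) without KD+TGF-β1 replicate 2. Its change in NC cells was 0.48 (SE 0.289, adjusted p = 0.161). Eif2ak2 stood at 60.3, 62.2 and 60.6 CPM in KD and at 67, 66.3 and 69.5 CPM in KD+TGF-β1 libraries. The groups did not overlap, at a log2 change of 0.15 (SE 0.0515, adjusted p = 0.021). In NC the change was 0.11 (SE 0.0517, adjusted p = 0.0658), on 64.7, 59.3 and 57.2 against 61.1, 68.8 and 66.3 CPM, groups that overlap. That change passed with DESeq2 size factors (0.0194), with DESeq2 (0.0478) and without NC replicate 1 (0.00705) or NC+TGF-β1 replicate 1 (0.016). Leaving out KD replicate 1 (0.0615), KD replicate 3 (0.056) or KD+TGF-β1 replicate 3 (0.0786) ended the Eif2ak2 call.

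The largest changes were the falls of Ifit3 and Ifit3b. The Ifit genes code for proteins that bind foreign or unmodified RNA and lie in a cluster on chromosome 19, with Ifit1bl1 and Ifit1bl2 between some of them. Counts of Ifit3 (Entrez 15959) were 1071, 1126 and 1167 for NC against 56, 86 and 71 for NC+TGF-β1 libraries. In silenced cells it had 1265, 1233 and 1261 counts without and 63, 81 and 52 with TGF-β1. The groups stood far apart, with the TGF-β1 libraries lower. Ifit3 fell by 3.92 on the log2 scale in NC (SE 0.101, adjusted p = 4.4e-13), or 15.2-fold. It fell by 4.18 in KD cells (SE 0.102, adjusted p = 2.42e-13), or 18.1-fold.

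Counts of its near-copy Ifit3b (Entrez 667370) were 311, 377 and 360 for NC against 20, 18 and 16 for NC+TGF-β1 libraries. In silenced cells they were 367, 403 and 380 without and 15, 16 and 16 with TGF-β1. It moved as Ifit3 did, with log2 changes of -4.21 (SE 0.115) in NC and -4.52 (SE 0.117) in KD cells. Summed over both genes, the fall was 15.9-fold in NC (log2 change -3.99, SE 0.0847, adjusted p = 5.18e-14) and 19-fold in KD cells (-4.25, SE 0.0856, adjusted p = 3.39e-14). The sum was taken after the data were seen, since the 2 genes share reads. By size of decrease in NC cells, Ifit3b ranked 14 and Ifit3 ranked 20 of 11709 genes.

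Ifit2 fell less. It ranged from 1828 to 2239 counts in the 6 basal libraries and from 507 to 550 in the 6 TGF-β1 libraries. The fall was 3.63-fold in NC (log2 change -1.86, SE 0.0725, adjusted p = 3.32e-11) and 3.52-fold in KD cells (-1.82, SE 0.073, adjusted p = 4.29e-11). Ifit1 went from the 9 summed counts of NC to 1 with TGF-β1, 8.88-fold lower (exact 95% interval 1.23 to 389, edgeR adjusted p = 0.0144), and from 42 to 10 in KD cells, 4.13-fold lower (2.04 to 9.23, edgeR adjusted p = 0.000316). Ifit1 passed the low-count filter only through the KD basal libraries, which are also the high group of the KD comparison. Without NC+TGF-β1 replicate 2 or 3 the Ifit1 call in NC cells was lost (adjusted p = 0.0629 and 0.0619), as it was with DESeq2 (0.065) and limma on TPM (0.0649). Ifit2 and Ifit3 are neighbours, and the windows of Ifit2 hold no ISRE core while those of Ifit1, Ifit3 and Ifit3b do.

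**Figure D3:**
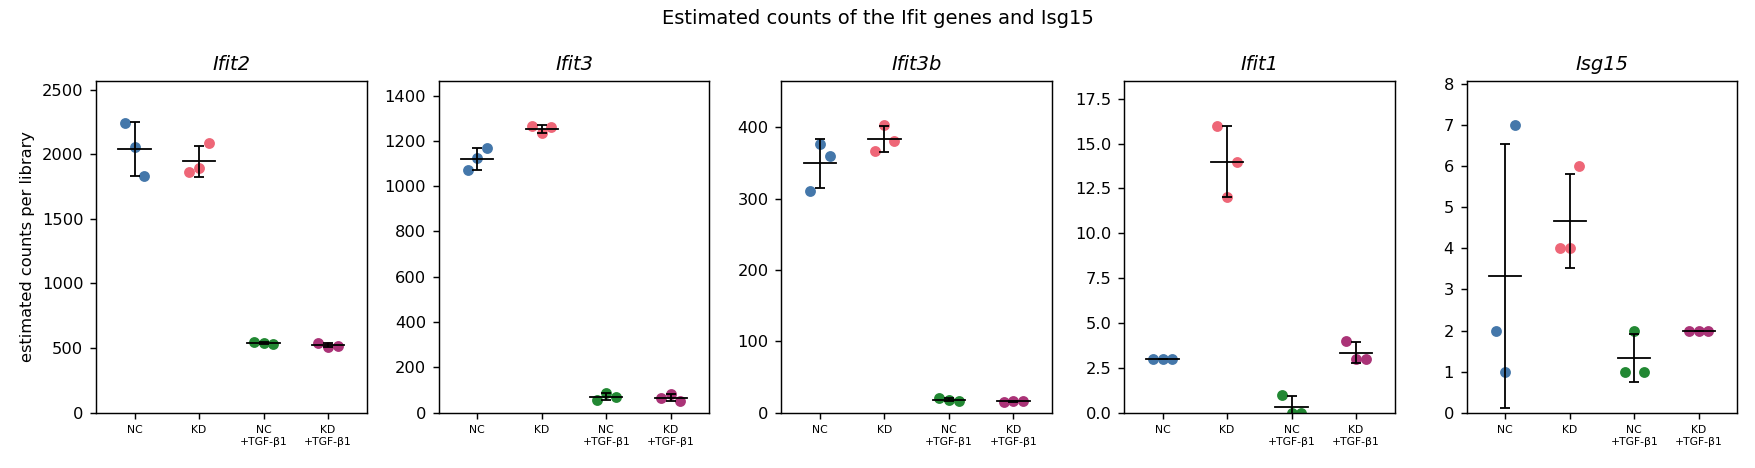
Estimated counts per library of the Ifit genes and Isg15 in the 4 groups; bars are the mean and SD of 3 libraries, and each axis starts at 0. Ifit2, Ifit3 and Ifit3b are high in all basal and low in all TGF-β1 libraries, whereas Ifit1 and Isg15 stay at 16 counts or fewer throughout.

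The other effectors moved both ways. Bst2 (tetherin), which holds budding virus at the cell surface, fell from 14 to 14.6 CPM in NC libraries to 9.94 to 10.7 with TGF-β1 (log2 change -0.49, SE 0.078, adjusted p = 8.08e-05). In KD cells its log2 change was -0.61 (SE 0.0771, adjusted p = 8.43e-06). In contrast, Parp9 and Dtx3l, which code for partners in an ADP-ribosyltransferase and ubiquitin ligase complex and lie next to each other, rose. Parp9 rose 2.18-fold in NC (log2 change 1.13, SE 0.0929, adjusted p = 1.08e-07) and 2-fold in KD cells. Dtx3l rose 2.26-fold in NC (1.18, SE 0.153, adjusted p = 1.12e-05) and 2.12-fold in KD cells.

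Parp14, the next gene along, rose in NC cells (0.82, SE 0.188, adjusted p = 0.00162) and was at 0.42 (SE 0.179, adjusted p = 0.0508) in KD cells. That change in KD cells passed with DESeq2 size factors (0.0431) and without KD replicate 3 (0.0254) or KD+TGF-β1 replicate 3 (0.0434). Ifi44, whose counts were 11 to 23 in basal and 42 to 49 in TGF-β1 libraries, rose 2.2-fold in NC and 3.28-fold in KD cells. Usp18, which removes ISG15 from proteins and dampens the receptor, had 3 to 10 counts in NC and 14 to 18 in NC+TGF-β1 libraries (log2 change 1.59, SE 0.363, adjusted p = 0.00154). In KD cells it was at 0.45 (SE 0.333, adjusted p = 0.254). Ifi35 did not pass in NC or KD cells. Of 11 tested effectors, 5 rose and 5 fell in NC cells (90.9%, against 64.2% of all genes), Usp18 and Ifit1 with their filter limits among them. In KD cells 3 rose and 5 fell (72.7%, against 65.1%).

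Of 7 tested presentation genes, B2m, Tapbp and Psmb10 rose and H2-D1 fell in both kinds of cells (57.1% called in each, against 64.2% and 65.1% of all genes). B2m (Entrez 12010) stood at 112, 125 and 126 CPM in NC and at 194, 197 and 191 CPM in NC+TGF-β1 libraries. In silenced cells it stood at 117, 126 and 123 CPM without and at 203, 166 and 205 CPM with TGF-β1. Every TGF-β1 library was above every basal library, although KD+TGF-β1 replicate 2 was lower than the others with TGF-β1. The rise was 1.6-fold in NC (log2 change 0.68, SE 0.0691, adjusted p = 1e-06) and 1.57-fold in KD cells (0.65, SE 0.069, adjusted p = 1.39e-06).

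Psmb10 stood at 5.43, 5.7 and 5.59 CPM in NC and at 9.12, 6.96 and 7.52 CPM in NC+TGF-β1 libraries. In silenced cells it stood at 6.35, 6.39 and 6.22 CPM without and at 9.69, 7.6 and 7.99 CPM with TGF-β1. The groups did not overlap, and the log2 changes were 0.50 (SE 0.118, adjusted p = 0.00207) and 0.41 (SE 0.114, adjusted p = 0.00543). Tapbp stood at 73.6, 76.6 and 75.6 CPM in NC and at 77.1, 77.9 and 75.7 CPM in KD libraries, each below all 6 TGF-β1 libraries given above. Its log2 change with TGF-β1 was 0.24 (SE 0.0327, adjusted p = 1.59e-05) in NC and 0.35 (SE 0.0324, adjusted p = 3.11e-07) in KD cells.

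H2-D1, by contrast, was 113 to 118 CPM in NC and 97 to 103 CPM in NC+TGF-β1 libraries (log2 change -0.19, SE 0.0369, adjusted p = 0.000383), and its log2 change in KD cells was -0.26 (SE 0.0367, adjusted p = 2.86e-05). H2-K1, Tap1 and Tap2 did not pass in NC or KD cells, with H2-K1 at 0.00 and -0.12. In KD cells, limma on TPM called Tap1 (adjusted p = 0.0105) and H2-K1 (0.031) lower. H2-K1 also passed in edgeR without KD+TGF-β1 replicate 1 (0.0402). The heavy chain genes have close copies, so their counts are uncertain.

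**Figure D4:**
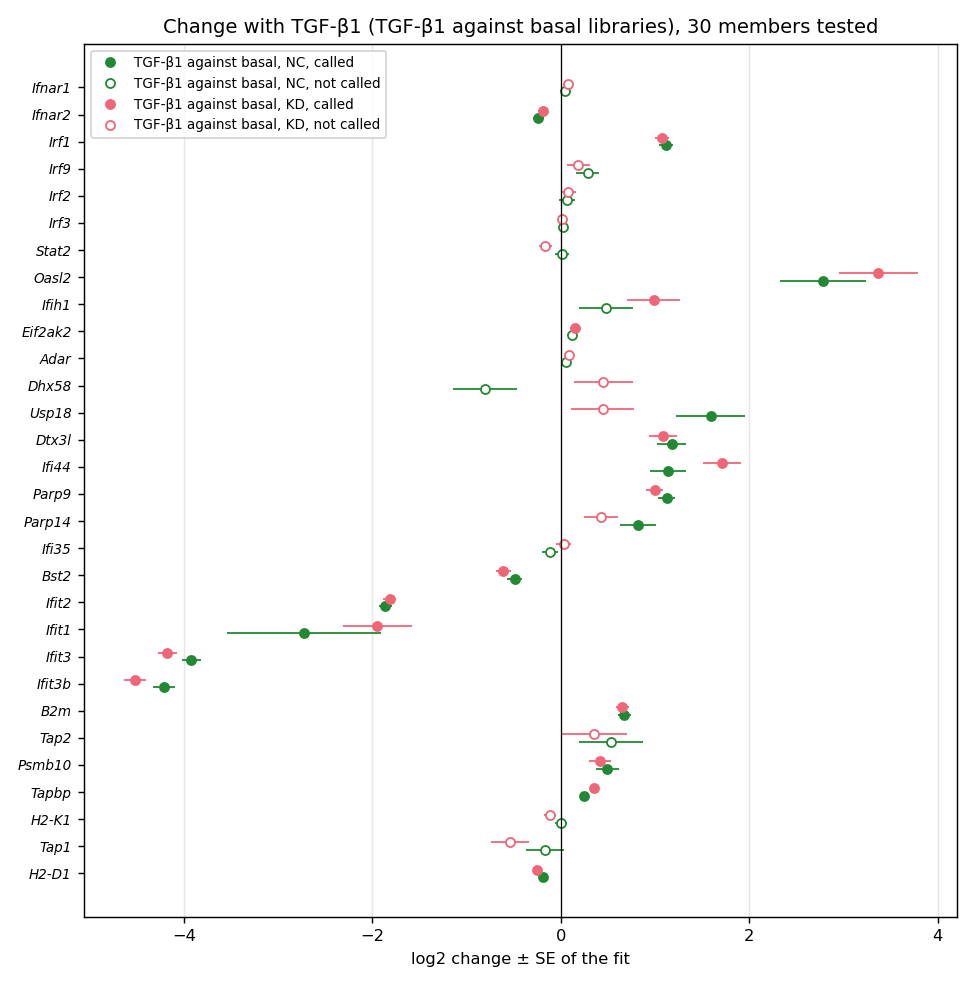
Log2 change with TGF-β1 on the horizontal axis for the 30 tested members, ordered by role, in NC and in KD cells; points are fitted changes, lines are ± SE, and filled points are called. Ifit3 and Ifit3b lie near -4, Ifit2 and Ifit1 near -2 to -3, and Irf1, Dtx3l, Parp9, Ifi44 and Oasl2 at 1 or more.

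**Figure D5:**
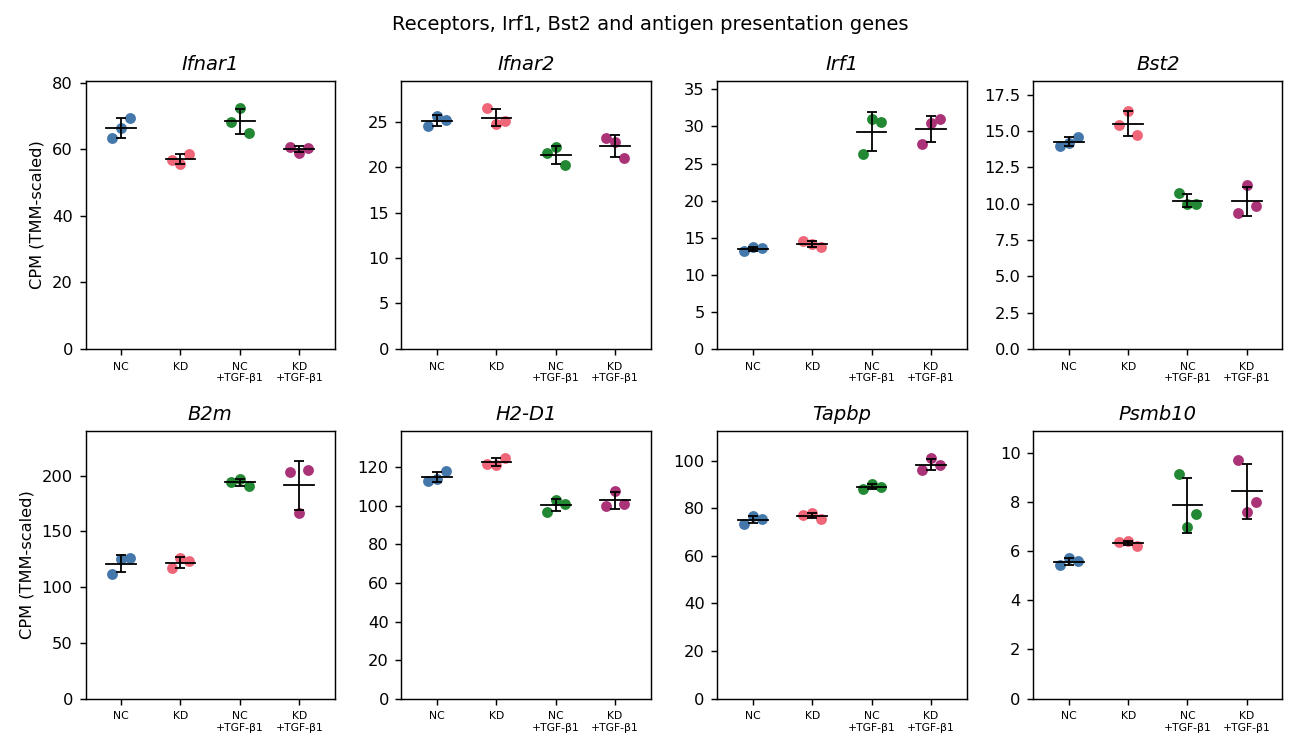
CPM per library of the receptor chains, Irf1, Bst2 and the called presentation genes in the 4 groups, with mean and SD of 3 libraries and axes from 0. Ifnar1 is lower in both KD groups; Irf1, B2m, Tapbp and Psmb10 are higher and Ifnar2, Bst2 and H2-D1 lower in the TGF-β1 groups.

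Among 46 further genes of the same pathway that are not on the list, 36 were tested, and in basal cells silencing raised 1 of them (2.78%, against 3.66% of all genes). That gene is Cxcl10, a T cell-attracting chemokine, with 15, 11 and 12 counts across NC and 49, 50 and 39 across KD libraries. Its groups did not overlap, at a log2 change of 1.82 (SE 0.257, adjusted p = 0.00118). In NC+TGF-β1 libraries Cxcl10 had 5, 10 and 7 counts and in KD+TGF-β1 libraries 13, 6 and 15, groups that overlap. It was not called there (log2 change 0.62, SE 0.386, edgeR adjusted p = 0.362). With TGF-β1, silencing called 4 of the 36 (11.1%, against 11.4% of all genes). The interferon-γ receptor chain Ifngr2 (0.21, adjusted p = 0.0289), the peptide trimmer Erap1 (0.26, adjusted p = 0.031) and the adaptor Traf3 (0.13, adjusted p = 0.0329) were higher. The membrane protein Ifitm3, which blocks viral entry, was lower (-0.68, adjusted p = 0.0457). The interaction called 0 of the 36 in edgeR, against 0.888% of all genes. At an unadjusted p under 0.05 there were 6 of the 36 and 1326 of 11709 genes.

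TGF-β1 called 24 of these 36 genes in NC cells (16 higher, 8 lower) and 26 in KD cells (17 higher, 9 lower). The shares, 66.7% and 72.2%, stand beside 64.2% and 65.1% of all genes. In both kinds of cells 21 were called, in the same direction, and the matching count over all genes was not taken. By smallest p, the double-stranded RNA receptor Tlr3 fell by 1.03 in NC and by 0.99 in KD cells on the log2 scale, and Ikbke, a kinase that activates IRF3, fell by 1.28 and by 1.32. The adaptor Mavs, which relays the signal of IFIH1, fell by 0.68 in NC cells (adjusted p = 4e-09) and by 0.69 in KD cells (adjusted p = 3.75e-09). Pml, the scaffold of nuclear bodies, fell by 0.58 in KD cells (adjusted p = 2.47e-09). The immunity-related GTPase Irgm1 rose by 1.03 in NC (adjusted p = 1.38e-10) and by 0.88 in KD cells (adjusted p = 6.98e-10). The adjusted p of Tlr3 and Ikbke were 1.67e-11 and 6.75e-11 in NC and 2.74e-11 and 4.11e-11 in KD cells.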

How the data were processed

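RNA of 12 mTEC libraries was sequenced, 3 in each of 4 groups. Per the labels' protocols, TRIzol was used for total RNA and a BGI kit for the mRNA libraries. RSEM 1.3.1, DESeq2 1.34.0, HISAT2 and Bowtie2 appear, without roles, in the submitters' processing notes, as does hg38, a human build, for these mouse cells. The authors deposited 1 transcript table of basal and 1 of TGF-β1 libraries, with estimated counts and TPM per library per the file headers; 40 other value columns were not used. Whether the counting used strand is not given in the sources used here, so reads of overlapping genes cannot be told apart.

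Per Entrez gene, the deposited estimated counts and TPM were added up over the tables, with 0 where a gene was not listed, and counts were rounded to whole numbers. Depth was 17651213 to 18462872 counts, which leaves genes with few counts imprecise. Symbols came from RefSeq and could not be given to 127 genes. In R 4.3.3, edgeR 4.0.16 was run with TMM scaling (factors 0.978 to 1.02), filterByExpr, 1 fit over all 12 libraries with 8 residual degrees of freedom, and quasi-likelihood tests on 11709 genes; Benjamini-Hochberg adjusted p under 0.05 is a call. The code was tested on simulated data. The fit gives log2 changes with standard errors. For low counts, summed counts were compared as ratios with exact 95% binomial intervals. Replicate libraries differed beyond sampling noise (chi-square per gene 1.68 to 13.7). The highest values were those of NC replicate 1, against NC replicate 3 (13.7) and NC replicate 2 (7.29). All 12 libraries were kept.

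Alternatives were DESeq2 size factors, no low-count filter, DESeq2 1.42.0, a replicate block, only the groups compared, limma 3.58.1 on log2 (TPM + 1), only genes in both tables, leaving out each library in turn and, chosen after seeing the data, Ifit3 and Ifit3b summed. The members, the lists and the tests were chosen with earlier results of these data known. Values of every library are given for members called for silencing or the interaction and for up to 3 members per role with the largest called changes with TGF-β1; Ifit2, Bst2 and the other effectors named outside that rule were picked after their values were seen. Of the pathway genes outside the list, up to 4 called genes per comparison with the smallest p are named. Mature protein sequences were not used here.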

Additional observations from a re-analysis of the deposited data

How the results depend on the processing

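Counts of members called were 17 in either TGF-β1 comparison and kept within 1.5 times of that in all alternatives run (16 to 20, leave-one-out included), and the interaction called 0 members in each. For silencing in basal cells, the 2 called members became 1 with DESeq2, with only the groups compared and with limma on TPM, and 1 to 2 without 1 library. For silencing with TGF-β1, the 3 called members became 1 with DESeq2 and 0 to 3 without 1 library. With no low-count filter and with limma on TPM the count became 2, as Ifit1 was lost. With only the groups compared 3 were called, Dhx58 in place of Ifit1, which was not tested there. DESeq2 gave no adjusted p for 16 of the 30 members in the basal comparison and for 10 with TGF-β1 and in the interaction, Ifit1 among them each time, so its counts cover fewer genes. No called log2 change reversed. The interaction needs all groups, so it has no value with only the groups compared. Over all genes, the basal silencing count of 429 (169 higher, 260 lower) was 151 (77 and 74) with only the groups compared, 327 (176 and 151) with limma on TPM, and 212 to 272 without NC replicate 2 or any KD replicate, but 642 (323 and 319) without NC replicate 3. That with TGF-β1, 1340, fell to 782 to 888 without NC+TGF-β1 replicate 3 or any KD+TGF-β1 replicate and was 1903 with only the groups compared. The interaction count of 104 fell to 54 with a replicate block and to 38 to 67 in the 9 fits without 1 library that lowered it most, and was 147 without NC replicate 3; the cause was not tested. The replicate block called 2, 3, 18, 17 and 0 members in the 5 comparisons, against 2, 3, 17, 17 and 0 without it. Libraries with the same number did not deviate together (correlations -0.11 to 0.07 over 18 pairs), so no pairing by number was detected. With 3 libraries a group, this cannot show that libraries of the same number were handled apart. Precision is limited most where counts are low: 16 of the 46 members could not be tested, and Ifit1, Oasl2 and Usp18 rest on few counts.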

Other observations

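Genes beside the Ifit members on chromosome 19 were looked at after the values were seen. Ifit1bl1, an Ifit1-like gene between Ifit3 and Ifit3b, had 14, 5 and 9 counts in NC, 10, 15 and 20 in KD, 0, 2 and 1 in NC+TGF-β1 and 2, 0 and 1 in KD+TGF-β1 libraries, so every basal library was above every TGF-β1 library. Lipa, the lysosomal acid lipase gene before Ifit2, had 227 to 316 counts in basal and 202 to 251 in TGF-β1 libraries, and its log2 change with TGF-β1 in NC cells was -0.07 (adjusted p = 0.556). Reads of Ifit1bl1 may be mixed up with those of its relatives.

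Of the 46 members, 12 hold in their 3′ UTR at least 1 of 4 words of 7 bases that had been picked in genes lower with silencing in these data. The share of all genes that hold such a word was not counted, so whether 12 is many or few is not known. Of the 30 tested, 9 hold one, and 1 of those, Ifnar1, was called lower with silencing. The words were picked in genes of that direction, Ifnar1 among the candidates, so this is no separate evidence.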
